A study of Mus musculus with 4 samples.

Results

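Wnt ligands are secreted, lipid-modified signalling proteins that bind Frizzled receptors together with the coreceptors Lrp5 or Lrp6, which stabilises beta-catenin in the canonical branch of the pathway. R-spondins bind the receptors Lgr4, Lgr5 and Lgr6 and keep Frizzled receptors at the cell surface by clearing the ubiquitin ligases Znrf3 and Rnf43. Wnt5a, Wnt5b and Wnt11 are best known for branches that do not use beta-catenin, among them planar cell polarity. The genes described here are the 38 genes of the mouse annotation, out of 33696 listed, whose symbols name them as a Wnt ligand (19 genes), a Frizzled receptor (10), an R-spondin (4), one of Lgr4 to Lgr6 (3) or Lrp5 and Lrp6 (2). The rule used symbols and no measured value, although earlier results of these data were known when it was chosen.

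Single cells of mouse Achilles tendon were captured in droplets, and each mRNA molecule read was tagged with a unique molecular identifier (UMI). The neonate control and neonate injury libraries came from tendon at postnatal day 3 without and with injury, and the adult control and adult injury libraries from tendon at 6 to 8 weeks, again without and with injury. Where 4 values stand together, they follow this order. The labels give no strain, genotype, sex, way of injuring, interval after injury or number of mice. With 1 library per group no test between groups was possible and no p-value is given. Parentheses after a value hold its 95% interval, which covers counting error only, and a log2 ratio is injury over control of the same age or, for age, neonate control over adult control.

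The libraries held 10429, 14885, 6113 and 4625 cells after filtering, with median depths of 10698, 5748, 9787 and 10170 UMIs, and any pair of libraries shared between 3 and 49 cell barcodes. Cells were put in classes by marker genes, and cells whose markers named 2 lineages were left out. The fibroblast lineage, defined by collagen and matrix genes, was the largest class with 5792, 9271, 3949 and 1989 cells. The 8 tenocyte markers, Scx and Tnmd among them, summed to 1983, 2620, 10906 and 2202 CPM (UMIs per 1000000) in it, against 84.2, 115, 644 and 66.1 CPM in endothelial cells. Its cells were mainly Y-positive in the neonate control library (86.7% with a Y-linked UMI and no Xist) and mainly Xist-positive in the other libraries (76.5%, 95.1% and 88.1%). In the age comparison, sex and age cannot be told apart. In the neonatal injury comparison of the whole lineage, sex and injury cannot be told apart either. Neonatal ratios in Y-positive, Xist-negative cells are given for some genes. Cells with at least 2 UMIs of G2M genes made up 30.4%, 8.64%, 2.58% and 37.9% of the lineage.

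Levels are UMIs per 1000000 (CPM) of the summed UMIs of a class in a library. They count captured molecules and are not divided by gene length, so no order of genes by level is drawn, and sums and shares over a family are of captured molecules. The 51 fibroblast-lineage levels of at least 20 CPM rested on 841 to 8569 UMIs each, with intervals of at most 6.99% to either side. Of the 38 genes, 22 reached 20 CPM in at least 1 class of at least 50 cells, and 16 did not. The 22 were 7 Wnt ligands (Wnt2, Wnt4, Wnt5a, Wnt5b, Wnt6, Wnt9a and Wnt11), Rspo2, Rspo3, 8 Frizzled genes (all but Fzd5 and Fzd10), the 3 Lgr receptors, Lrp5 and Lrp6. Wnt10b, Wnt16, Wnt2b, Wnt1, Wnt10a, Wnt7b, Wnt3, Wnt3a, Wnt7a, Wnt8a, Wnt8b, Wnt9b, Fzd5, Fzd10, Rspo1 and Rspo4 stayed under 20 CPM in every such class. Each of the 38 genes had at least 1 UMI somewhere, but Wnt8a had 2 in all libraries together, Wnt8b 11, Wnt7a 13, Wnt9b 13 and Wnt3a 22. At this depth, such counts do not allow a statement about where these 5 ligands were made.

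**Figure D1:**
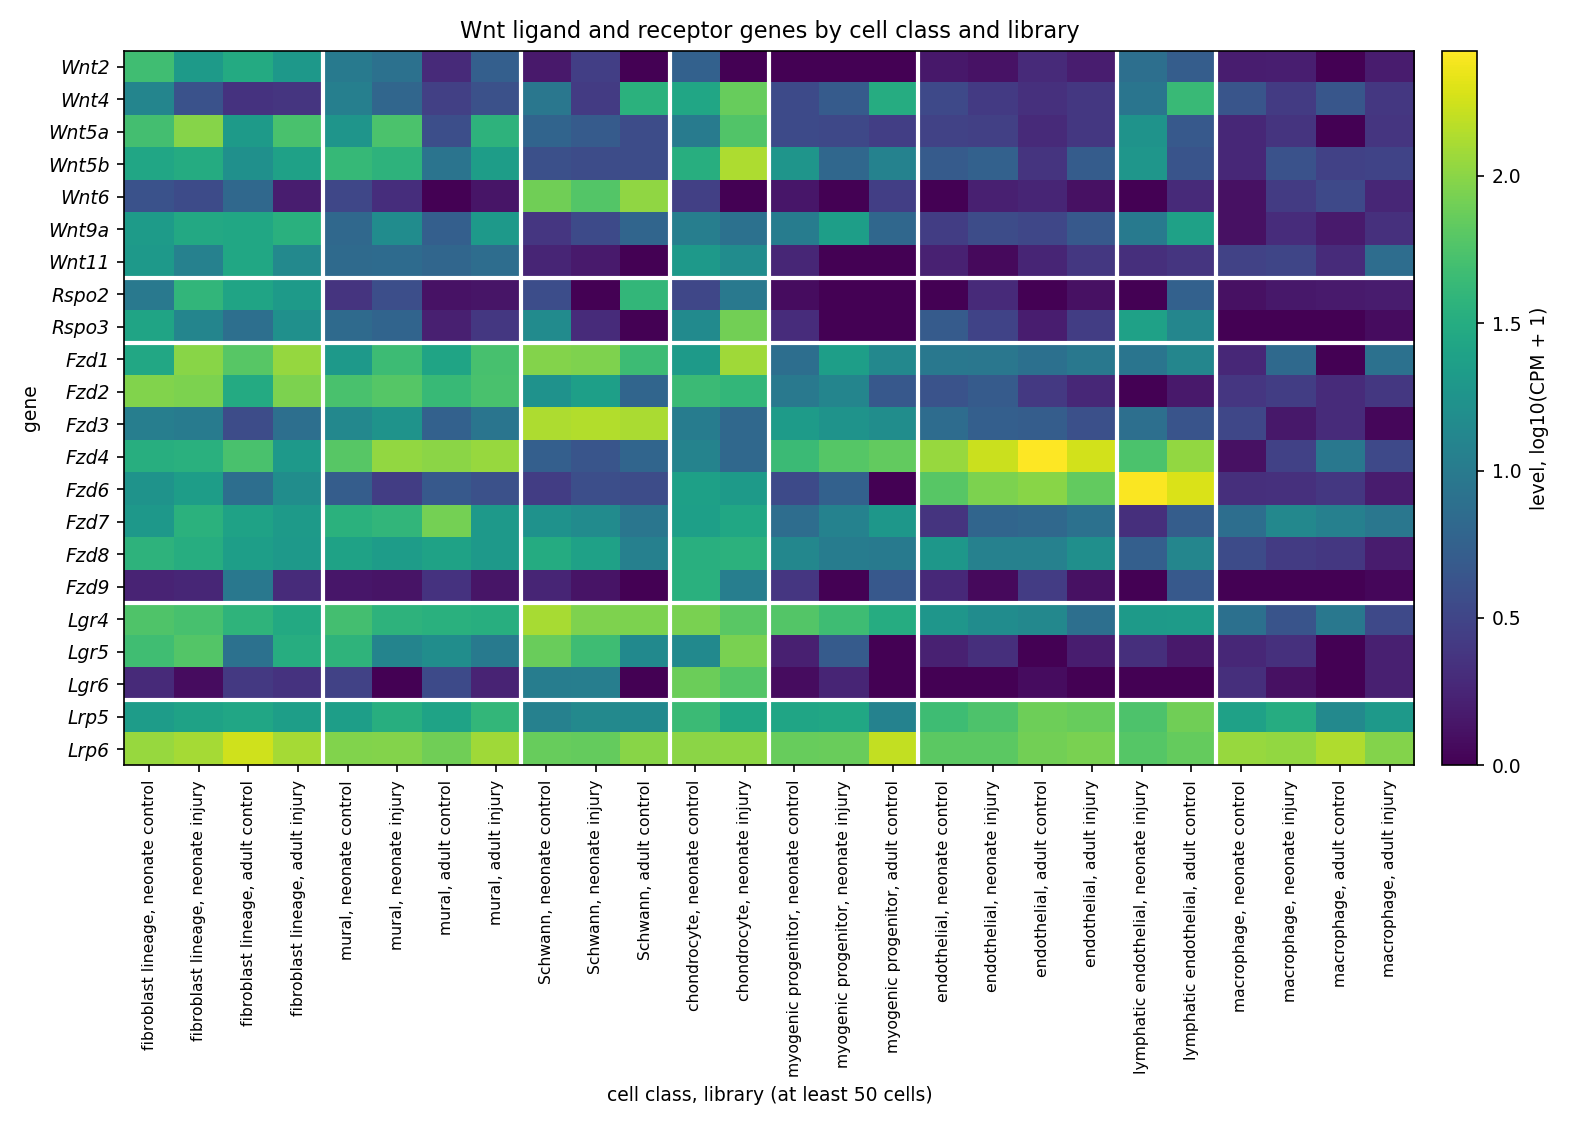
Levels of the 22 genes that reached 20 CPM, as log10(CPM + 1) by colour, with genes in rows and classes of at least 50 cells in each library in columns. Wnt2 and Wnt5a are brightest in fibroblast-lineage columns, Wnt6 and Fzd3 in Schwann columns, Fzd4 in endothelial and Fzd6 in lymphatic endothelial columns, and macrophage columns are dark except for Lrp5 and Lrp6.

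The ligand side of the pathway lay mostly with the fibroblast lineage. The 19 Wnt genes summed to 192, 204, 143 and 164 CPM in fibroblast-lineage cells, against 13.2, 12.9, 11.1 and 14.5 CPM in endothelial cells and 9.36, 12.3, 12.8 and 15.5 CPM in macrophages. Of the Wnt2 UMIs in gated cells, 95.8%, 96.7%, 98.8% and 97.3% came from the fibroblast lineage, and for Wnt5a the shares were 90.6%, 95.9%, 89.5% and 94.4%. These shares also rest on how many cells of each class a library held. Receptors were spread more widely, since the 10 Frizzled genes summed to 245, 332, 223 and 294 CPM in fibroblast-lineage cells and 220.0, 299, 405 and 296 CPM in endothelial cells, but to 27.5, 36.8, 29.1 and 37.6 CPM in macrophages.

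Wnt5a, a ligand best known for beta-catenin-independent signalling, stood at 48.9, 95.1, 20.2 and 52.9 CPM in the fibroblast lineage. The 2 injured libraries were the higher of each age, and the adult control was the lowest of the 4. The log2 ratio of injury over control was 0.96 (0.90 to 1.02) in neonates, just under 2-fold, and 1.39 (1.28 to 1.503) in adults, and that of neonate control over adult control was 1.28 (1.18 to 1.38). The neonatal ratio was 0.37 in cells that passed a tenocyte gate (at least 4 of 8 tenocyte markers) and over 2-fold outside the gate, at 1.26 (1.19 to 1.33), in Y-positive, Xist-negative cells, at 1.06, and with each cell thinned to 2000 UMIs, at 1.03. Outside the tenocyte gate the age ratio was 0.63 (0.50 to 0.75) and the adult injury ratio 0.83 (0.70 to 0.96), both under 2-fold. The adult injury ratio was also under 2-fold after thinning, at 0.94 (0.60 to 1.27), and without dividing cells, at 0.93 (0.79 to 1.07). After thinning, 8.67%, 16.5%, 3.76% and 7.17% of fibroblast-lineage cells held a Wnt5a UMI. Before thinning the shares were 34.0%, 37.6%, 15.8% and 39.3%, at median depths of 10948, 6300, 11543 and 18156 UMIs. Macrophages, which should lack the gene, gave thinned shares of 0%, 0.41%, 0% and 0.29%, at median depths of 11611, 4800, 11306 and 7521 UMIs, so the fibroblast shares lay above this background in every library.

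**Figure D2:**
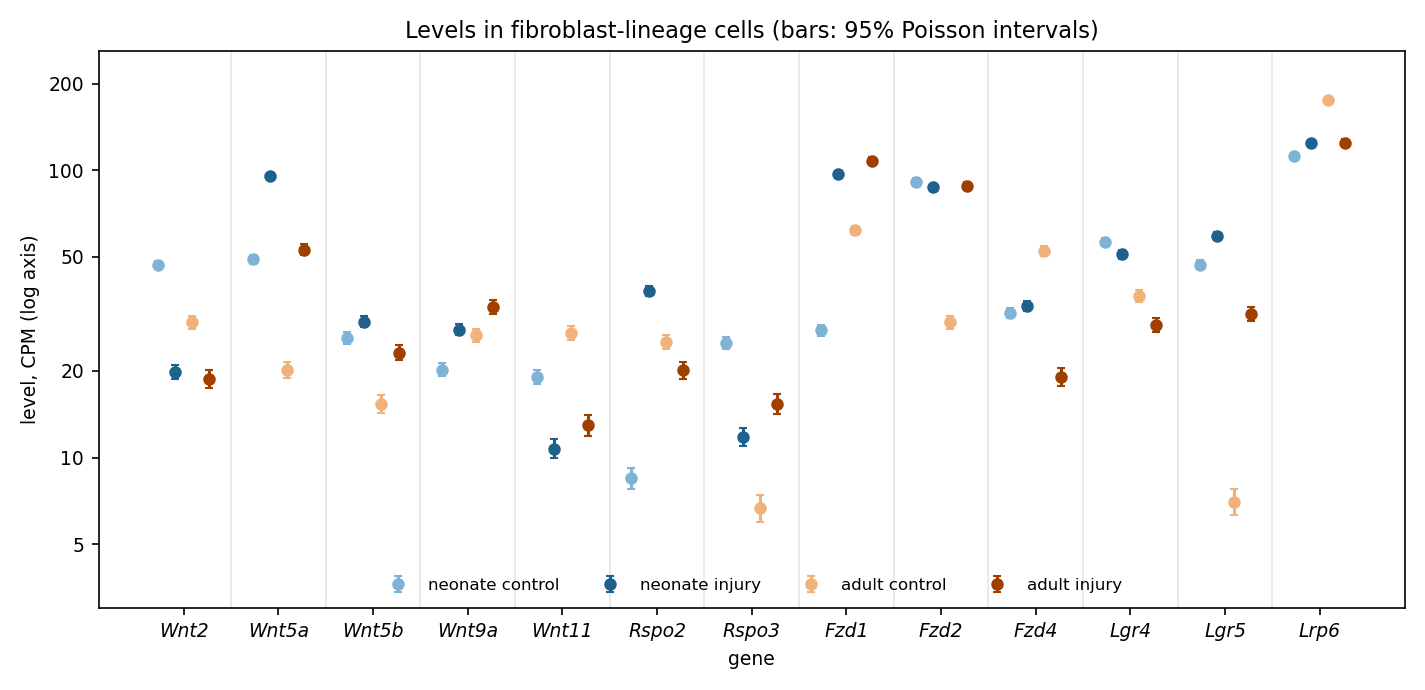
Levels in CPM on a log axis of 13 genes in fibroblast-lineage cells of the 4 libraries, with 95% Poisson intervals as bars. Wnt5a and Fzd1 are higher in both injured libraries than in the control of the same age, while Fzd2 and Lgr5 stand low in the adult control library alone.

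Wnt2, a ligand of the canonical branch, showed the opposite order. Its fibroblast-lineage level was 46.8, 19.8, 29.5 and 18.8 CPM, so that each injured library was below the control of its age. The log2 ratio was -1.24 (-1.34 to -1.15) in neonates and -0.65 (-0.78 to -0.53) in adults. The neonatal difference was not seen in Y-positive, Xist-negative cells, which held 47.7 and 53.7 CPM in neonate control and neonate injury, a log2 ratio of 0.17 (0.03 to 0.31). Outside the tenocyte gate the neonatal ratio was -0.89 (-0.99 to -0.79), under 2-fold. The adult difference was not seen without dividing cells, at -0.08 (-0.23 to 0.06), or after thinning, at -0.05 (-0.44 to 0.31), and outside the tenocyte gate the adult ratio was -1.501 (-1.63 to -1.37).

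Within the fibroblast lineage, Wnt2 was higher in cells that passed a Pi16 Dpp4 gate than in cells that passed the tenocyte gate. The Pi16 Dpp4 gate needed at least 3 of Pi16, Dpp4, Cd55, Sema3c and Anxa3, genes of fibroblasts of the sheaths and fascia around organs. Cells that passed this gate and no other within the lineage held 130.3, 121, 84.2 and 100.3 CPM of Wnt2, while cells that passed the tenocyte gate alone held 0.92, 0.26, 0.74 and 0 CPM. Wnt10b, another canonical ligand, followed it with 29.0, 41.7, 43.2 and 44.0 CPM in Pi16 Dpp4 cells and 1.08, 0.13, 0.067 and 1.27 CPM in tenocyte-gated cells. Both ligands thus had levels in the Pi16 Dpp4 gate above those in the tenocyte gate in all 4 libraries, with intervals that did not overlap. In the neonatal libraries, injury and control were close within the gate for Wnt2, at 130.3 CPM in control and 121 CPM with injury. Wnt10b was 29.0 and 41.7 CPM in the same cells. Cells that passed this gate alone were not the only source of Wnt2 in the lineage. The share of fibroblast-lineage cells in that gate was 12.6% in neonate control and 6.78% in neonate injury, 14.3% in adult control and 3.02% in adult injury, where 60 cells remained. The part of this share in the Wnt2 ratios was not tested.

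Wnt11, a ligand of the beta-catenin-independent branch, was higher in the Pi16 Dpp4 gate than in the tenocyte gate as well. It stood at 31.9, 20.4, 57.6 and 36.9 CPM, against 6.78, 4.36, 10.6 and 17.8 CPM in tenocyte-gated cells. The intervals of Wnt11 in the 2 gates overlapped in adult injury alone. Over the whole lineage it stood at 19.0, 10.7, 27.1 and 13.0 CPM. Both injured libraries were below the control of their age, with log2 ratios of -0.82 (-0.96 to -0.69) in neonates and -1.06 (-1.21 to -0.92) in adults. The neonatal ratio was smaller in Y-positive, Xist-negative cells, at -0.32 (-0.59 to -0.06). The adult ratio was under 2-fold in tenocyte-gated cells alone, at -0.17 (-0.46 to 0.12), without dividing cells, at -0.90 (-1.09 to -0.72), and as a mean over cells, each cell weighted alike, at -0.83. Outside the tenocyte gate it was larger, at -1.88 (-2.05 to -1.71).

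The promoters of these 3 ligands are shown because they were higher in Pi16 Dpp4 cells than in tenocyte-gated cells in each library. The sequences are the 250 bases before the RefSeq transcription start on build GRCm38.p6, 5′ to 3′ on the strand of the gene, and capitals mark the core motif of TCF/LEF factors, CTTTGAA or CTTTGAT on either strand. Wnt2 lies on the minus strand at chr6:18030446-18030695, Wnt10b on the minus strand at chr15:98778151-98778400 and the upstream start of Wnt11 on the plus strand at chr7:98834862-98835111.
Wnt2: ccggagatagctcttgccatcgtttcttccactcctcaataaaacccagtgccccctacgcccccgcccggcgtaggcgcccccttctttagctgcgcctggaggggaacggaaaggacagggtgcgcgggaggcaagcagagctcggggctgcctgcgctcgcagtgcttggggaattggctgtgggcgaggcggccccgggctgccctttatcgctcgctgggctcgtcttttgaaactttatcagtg
Wnt10b: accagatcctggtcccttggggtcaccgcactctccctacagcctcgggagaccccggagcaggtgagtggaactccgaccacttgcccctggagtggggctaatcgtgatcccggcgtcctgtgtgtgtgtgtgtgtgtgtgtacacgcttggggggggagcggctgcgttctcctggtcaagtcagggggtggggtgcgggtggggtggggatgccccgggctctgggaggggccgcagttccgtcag
Wnt11: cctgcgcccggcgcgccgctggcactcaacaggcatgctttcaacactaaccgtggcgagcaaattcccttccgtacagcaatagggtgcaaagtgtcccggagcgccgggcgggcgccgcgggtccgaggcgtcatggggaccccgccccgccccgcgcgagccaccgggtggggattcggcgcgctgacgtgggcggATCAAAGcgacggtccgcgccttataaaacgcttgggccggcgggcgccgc
The motif was in the Wnt11 window, as its reverse complement, and in neither of the other windows. RefSeq windows were at hand for 25 of the 38 genes, and 2 of their 28 windows held it (7.14%, Wnt11 and a downstream start of Wnt5b), against 7.48% of all 32851 windows. The genes without one were Wnt5a, Wnt7b, Wnt8a, Wnt10a, Rspo2, Rspo3, Fzd2, Fzd3, Fzd6, Fzd8, Lgr5, Lrp5 and Lrp6. Wnt10b is next to Wnt1 among the protein-coding genes of chromosome 15, as Wnt6 is to Wnt10a on chromosome 1, and Wnt3a to Wnt9a and Wnt9b to Wnt3 on chromosome 11. The levels of the neighbours differed, as Wnt1 had 214 UMIs in all libraries together and Wnt10b 2589.

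**Figure D3:**
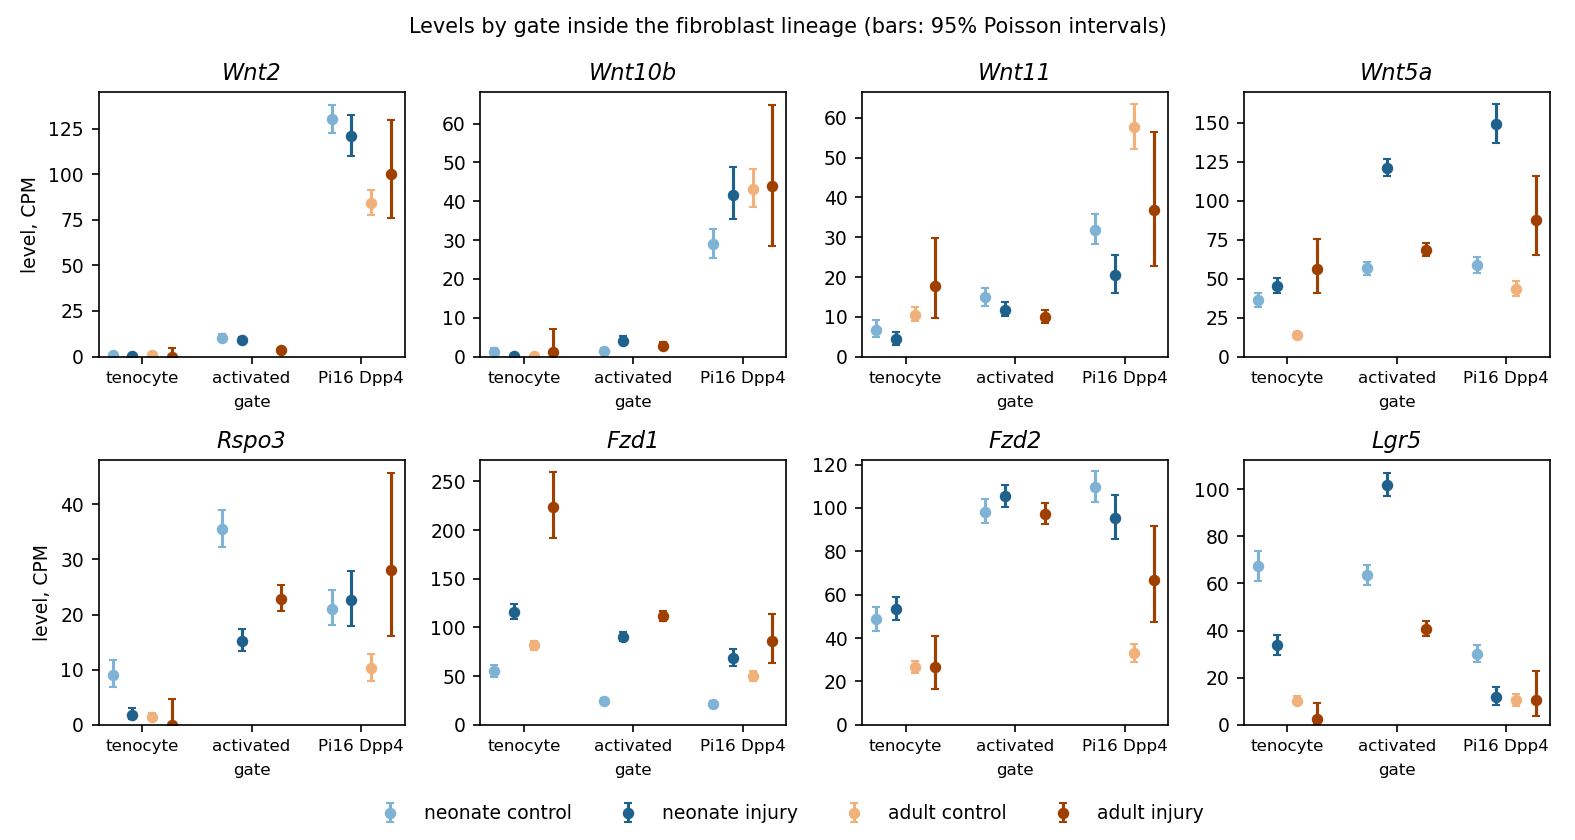
Levels in CPM of 8 genes in fibroblast-lineage cells that passed only the tenocyte, only the activated or only the Pi16 Dpp4 gate, by library, with 95% Poisson intervals as bars; a gate with fewer than 50 cells in a library has no point. Wnt2 and Wnt10b are near 0 in tenocyte-gated cells and high in Pi16 Dpp4 cells, and Fzd1 is higher with injury in each gate where both libraries have a point.

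Wnt5b and Wnt9a varied less between libraries. Wnt5b, a relative of Wnt5a, stood at 26.0, 29.7, 15.3 and 23.2 CPM in the fibroblast lineage, and Wnt9a, which acts in joint formation, at 20.2, 27.9, 26.6 and 33.4 CPM. Their injury ratios, 0.19 and 0.46 in neonates and 0.60 and 0.33 in adults on the log2 scale, were positive and under 2-fold. In the 927 chondrocytes of the neonate control library, Wnt5b was 32.0 CPM (28.8 to 35.4), and in the 65 of neonate injury it was 132 CPM (107 to 162). Of those 65 cells, 40% had just enough markers to pass.

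Wnt4 and Wnt16 were low in the lineage but differed strongly between libraries. Wnt4, which acts in kidney, gonad and joint development, was 11.6, 3.04, 1.24 and 1.36 CPM, with the neonate control library above the other 3. The log2 ratio was 3.21 (2.85 to 3.62) for age and -1.93 (-2.17 to -1.71) for neonatal injury, and in classes rebuilt from Leiden clusters the age ratio was 1.93. Wnt16, a ligand studied in bone and cartilage, was 2.54, 5.34, 0.2 and 9.38 CPM, with 10 UMIs in the adult control library. It was higher in both injured libraries than in the control of the same age, with log2 ratios of 1.07 (0.80 to 1.34) in neonates and 5.45 (4.63 to 6.59) in adults. With Leiden classes the neonatal ratio was 0.75, under 2-fold.

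Wnt6 was higher in Schwann cells, the glia that wrap peripheral axons, than in the fibroblast lineage as a whole. It stood at 77.7, 58.8 and 105 CPM in the Schwann cells of neonate control, neonate injury and adult control, the libraries with at least 50 such cells. In the fibroblast lineage it was 3.08, 2.59, 5.63 and 0.57 CPM. A small group of lineage cells with perineurial markers in neonate injury also held Wnt6, at a level given below with Fzd2. Of the Wnt6 UMIs in gated cells, 63.8% and 65.6% came from Schwann cells in the neonatal libraries and 11.3% in adult control, where only 74 Schwann cells were found. The adult injury ratio in the fibroblast lineage was -3.27 (-3.96 to -2.69), from 24 against 276 UMIs, and it was -1.79 in tenocyte-gated cells and -5.08 outside that gate. The 8 Schwann markers summed to 15.8 CPM in the lineage in adult injury and 34.2 CPM in adult control, all 8 with UMIs, and their part in the ratio was not tested.

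Rspo2 and Rspo3, which potentiate Wnt signalling through the Lgr receptors, came mostly from the fibroblast lineage, which held 83.3% to 99.1% of their UMIs in gated cells, and they differed between libraries in opposite ways. Rspo2 stood at 8.45, 38.0, 25.2 and 20.1 CPM and Rspo3 at 25.0, 11.8, 6.65 and 15.3 CPM. Neonate control was the lowest library for Rspo2 and the highest for Rspo3. With injury, Rspo2 was higher in neonates, with a log2 ratio of 2.17 (2.04 to 2.30), and Rspo3 was lower, with a ratio of -1.08 (-1.21 to -0.96). In Y-positive, Xist-negative cells the neonatal Rspo2 ratio was 1.60 (1.36 to 1.82). In adults, Rspo3 was higher with injury, at 1.21 (1.01 to 1.40), while the Rspo2 ratio was -0.33 (-0.46 to -0.20). Of the R-spondin UMIs in the lineage, Rspo2 made up 22.5%, 71.2%, 70.9% and 54.0% and Rspo3 66.5%, 22.1%, 18.7% and 41.2%.

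The near-level Rspo2 ratio of adults hid a split within the lineage. All cells that passed the tenocyte gate held 14.7, 61.5, 4.31 and 43.0 CPM of Rspo2, and the fibroblast-lineage cells outside it held 6.84, 23.6, 58.6 and 11.1 CPM. With adult injury the level was thus higher in tenocyte-gated cells, with a log2 ratio of 3.31 (3.03 to 3.60), and lower outside the gate, with a ratio of -2.40 (-2.58 to -2.22). For age, the ratio of neonate control over adult control was -1.58 (-1.72 to -1.44) in the whole lineage, 1.76 (1.44 to 2.09) in tenocyte-gated cells and -3.10 (-3.27 to -2.93) outside the gate, a reversal of direction, and -0.88 as a mean over cells. The neonatal injury ratio kept its sign in both, at 2.07 (1.86 to 2.29) and 1.79 (1.61 to 1.96). With cells thinned to 2000 UMIs the adult injury ratio was 0.24 (-0.22 to 0.68), and without dividing cells -0.04 (-0.20 to 0.12). The tenocyte gate held 1238, 3079, 2389 and 430 cells, of which 705, 1309, 1414 and 77 passed no other gate within the lineage. In cells that passed it alone, Rspo2 was 0.33 CPM (0.11 to 0.78) in adult control and 16.6 CPM (8.81 to 28.3) in adult injury. Lineage cells that passed several gates had median depths of 15366 UMIs in adult control and 25670 UMIs in adult injury. The part of depth in the gated ratios was not tested.

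The Rspo3 ratios also depended on the cells taken. In tenocyte-gated cells Rspo3 was 11.7, 2.12, 1.26 and 10.5 CPM and outside the gate 28.5, 17.7, 15.2 and 17.2 CPM. The adult injury ratio was 3.05 (2.52 to 3.62) in the gate and 0.18 (-0.03 to 0.39) outside it, and the neonatal injury ratio -2.45 (-2.94 to -2.00) and -0.68 (-0.81 to -0.56). The adult rise was not seen in cells that passed the tenocyte gate alone. These held 1.34 CPM (0.82 to 2.07) in adult control and 0 CPM (0 to 4.70) in adult injury, where 77 such cells were found. Outside the gate all 3 comparisons fell under 2-fold, with 0.90 (0.72 to 1.09) for age. The neonatal ratio was -0.77 (-1.05 to -0.51) in Y-positive, Xist-negative cells, and the adult one was 0.84 (0.27 to 1.39) after thinning, both under 2-fold. Rspo1 and Rspo4 were low, with at most 3.37 and 1.21 CPM in any class. Rspo4 was -2.24 on the log2 scale with neonatal injury, from 16 against 83 UMIs.

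**Figure D4:**
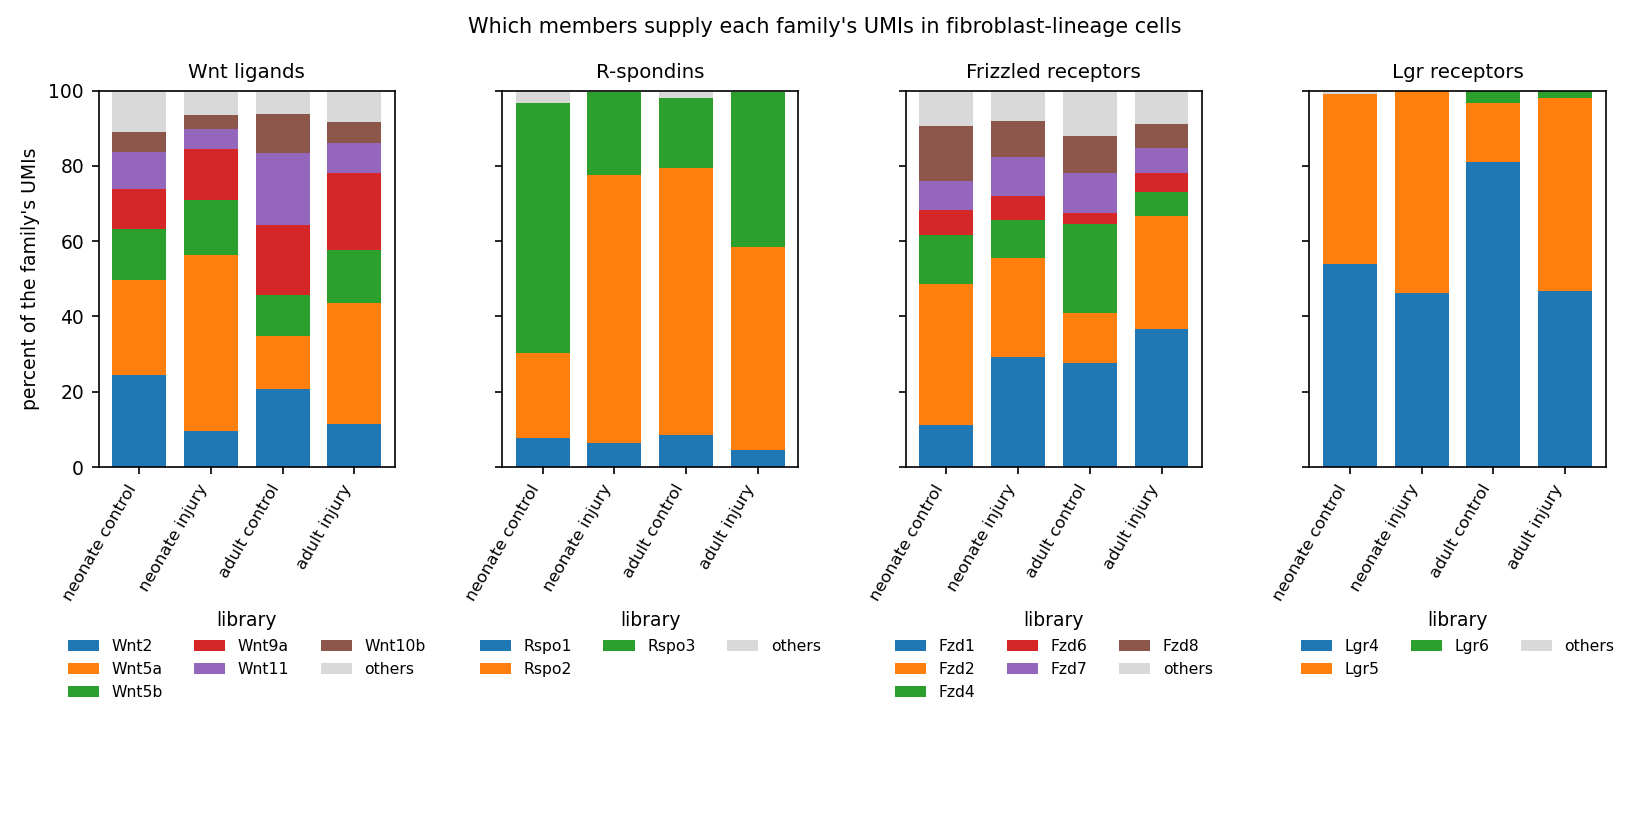
Percent of the UMIs of Wnt ligands, R-spondins, Frizzled receptors and Lgr receptors that each gene supplied in fibroblast-lineage cells of the 4 libraries; others sums the remaining genes and those under 1%. Rspo3 fills most of the R-spondin bar only in neonate control, and Lgr5 takes a small part of the Lgr bar only in adult control.

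Fzd1 and Fzd2, receptors that bind Wnt proteins through a cysteine-rich domain, differed in distinct ways between the libraries. Fzd1 stood at 27.7, 96.8, 61.7 and 108 CPM in the fibroblast lineage and Fzd2 at 91.2, 87.0, 29.6 and 88.1 CPM. For Fzd1 both injured libraries were above both controls, with log2 ratios of 1.80 (1.73 to 1.88) in neonates and 0.80 (0.74 to 0.87) in adults. The neonatal ratio of Fzd1 was 1.46 (1.32 to 1.59) in Y-positive, Xist-negative cells. For Fzd2 the adult control was low and the other 3 libraries differed by little: the ratio was 1.63 (1.54 to 1.71) for age, 1.57 (1.49 to 1.66) for adult injury and -0.07 (-0.12 to -0.02) for neonatal injury. The small neonatal ratio of Fzd2 was 0.08 (-0.04 to 0.21) in tenocyte-gated cells and 0.04 (-0.02 to 0.10) outside the gate, so its sign did not hold. The adult ratio of Fzd1 was 1.14 (1.03 to 1.25) outside the gate, over 2-fold. The difference of the injury ratios, neonatal minus adult, was 1.00 (0.90 to 1.10) for Fzd1 and -1.64 (-1.74 to -1.54) for Fzd2, with intervals for counting error.

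The gates within the lineage gave the same order for Fzd1. Cells of the tenocyte gate alone held 55.0, 116, 81.9 and 224 CPM of Fzd1, and those of the Pi16 Dpp4 gate alone 21.4, 69.1, 50.02 and 86.2 CPM. In each gate the injured library was above the control of its age. The age ratio of Fzd1, -1.16 (-1.24 to -1.07), was -0.59 (-0.71 to -0.46) in all tenocyte-gated cells, under 2-fold. Fzd2 went the other way between gates: 48.7, 53.6, 26.5 and 26.7 CPM in the tenocyte gate and 109.8, 95.4, 32.9 and 66.8 CPM in the Pi16 Dpp4 gate, with 98.4, 105 and 97.4 CPM in the activated gate (Postn, Adam12, Cthrc1, Lrrc15 and Kif26b) of neonate control, neonate injury and adult injury. Adult control had 6 cells that passed the activated gate alone and adult injury 750. The highest Fzd2 level of any gate was 406 CPM (340.1 to 481), in the 63 perineurial-gated cells of neonate injury. Those 63 cells also held 128 CPM (92.4 to 173) of Rspo1, 91.6 CPM (61.8 to 131) of Wnt6 and 144 CPM (105 to 191) of Fzd7, against 3.37, 2.59 and 34.3 CPM in the whole lineage of that library.

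Fzd4, the receptor of norrin in retinal vessels, was higher in endothelial and mural cells than in the fibroblast lineage. It stood at 110.1, 170.0, 265 and 179.9 CPM in endothelial cells and 31.9, 33.7, 52.4 and 19.1 CPM in the fibroblast lineage. In mural cells, the pericytes and smooth muscle cells of vessels, it was 61.5, 107, 98.9 and 112 CPM. Adult control had the highest endothelial level, with a neonate over adult log2 ratio of -1.26 (-1.42 to -1.12). In the fibroblast lineage adult injury was the lowest library, with an injury ratio of -1.46 (-1.57 to -1.34), while the neonatal injury ratio was 0.08 (-0.01 to 0.17). The neonatal ratio was -0.58 (-0.83 to -0.32) in tenocyte-gated cells, 0.41 (0.31 to 0.50) outside the gate and 0.51 (0.34 to 0.66) in Y-positive, Xist-negative cells, opposite directions in the gate and outside it. Without dividing cells the adult ratio was just under 2-fold, with an interval of -1.14 to -0.86. Fzd6, known for hair and planar polarity, was 61.6, 88.2, 96.9 and 68.7 CPM in endothelial cells. In lymphatic endothelial cells it was 254 CPM (222 to 289) in neonate injury and 194 CPM (176 to 214) in adult control, both above the endothelial levels of the same libraries.

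Fzd3, which guides axons during development, was higher in Schwann cells than in the fibroblast lineage. Its level in Schwann cells was 133, 138 and 128 CPM in neonate control, neonate injury and adult control, values whose intervals overlapped, against 9.91, 9.10, 2.65 and 6.68 CPM in the fibroblast lineage. Lymphatic, endothelial and mural cells lay under 20 CPM in each library. Schwann cells held 833 of 2225 Fzd3 UMIs in neonate control, 833 of 1665 in neonate injury and 49 of 272 in adult control. The low fibroblast-lineage level of Fzd3 was higher in neonate than adult control, at 1.90 (1.63 to 2.18), and with adult injury, at 1.33 (1.03 to 1.64). That adult ratio was under 2-fold after thinning (0.70), in tenocyte-gated cells (0.76) and as a mean over cells (0.98).

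Fzd9 and Fzd10 were low. Fzd9 stood out in adult control, while Fzd10 was higher in both adult libraries than in the neonatal ones. Fzd9 was 0.73, 0.84, 8.38 and 0.98 CPM in the fibroblast lineage, with log2 ratios of -3.52 (-3.98 to -3.10) for age and -3.08 (-3.60 to -2.63) for adult injury. The adult level lay in tenocyte-gated cells, where it was 1.83, 1.92, 13.1 and 1.36 CPM, and outside the gate it was 0.44, 0.18, 0.85 and 0.83 CPM, so that outside the gate the age ratio was -0.96 (-1.92 to 0.06) and the adult injury ratio -0.04 (-0.99 to 0.97). In neonate control 83.4% of Fzd9 UMIs in gated cells came from chondrocytes, at 33.6 CPM (30.3 to 37.2). Fzd10 was 0.36, 0.71, 2.35 and 1.65 CPM, with an age ratio of -2.67 (-3.38 to -2.06). Fzd6 in the lineage was 16.6, 21.5, 6.57 and 14.5 CPM, 1.34 (1.16 to 1.52) for age and 1.14 (0.95 to 1.34) for adult injury, and with Leiden classes the adult injury ratio was 0.89.

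Fzd7 and Fzd8 stayed within 2-fold in the fibroblast lineage. Fzd7 was 18.6, 34.3, 23.9 and 20.1 CPM there and Fzd8 35.6, 31.5, 21.7 and 18.8 CPM. The neonatal injury ratio of Fzd7 was 0.89 (0.79 to 0.99) and the adult one -0.25 (-0.38 to -0.12). In mural cells Fzd7 was 34.0, 38.0, 81.4 and 19.3 CPM, with adult control the highest and an adult injury ratio of -2.06 (-2.53 to -1.64). Fzd5 never reached 20 CPM in a class, with a highest level of 19.7 CPM in adult control mural cells.

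Lgr5, an R-spondin receptor and stem cell marker of several epithelia, was the Lgr gene that differed most. It stood at 46.9, 59.0, 7.02 and 31.6 CPM in the fibroblast lineage, low only in adult control. The log2 ratio was 2.74 (2.58 to 2.90) for age, 2.17 (2.00 to 2.35) for adult injury and 0.33 (0.26 to 0.40) for neonatal injury. With Leiden classes the age ratio was 2.15 and the adult injury ratio 1.51, and after thinning the latter was 1.57 (1.12 to 2.02). The neonatal ratio turned to -0.49 (-0.61 to -0.36) in all tenocyte-gated cells and -0.16 (-0.32 to 0.00) in Y-positive, Xist-negative cells, and was 0.66 (0.58 to 0.74) outside the gate. The level was 63.5, 102 and 40.8 CPM in the activated gate of neonate control, neonate injury and adult injury, and 67.3, 33.8, 10.3 and 2.55 CPM in the tenocyte gate. In cells that passed the tenocyte gate alone, the adult injury level, from 2 UMIs, was not above that of adult control, while over all cells that passed it the adult ratio was 2.53 (2.29 to 2.78). Adult injury cells that passed several gates held 28.5 CPM, against 2.44 CPM in adult control.

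Lgr4, the widely expressed relative of Lgr5, varied less, at 56.3, 50.9, 36.4 and 29.0 CPM in the fibroblast lineage and 126, 89.4 and 86.5 CPM in Schwann cells of neonate control, neonate injury and adult control. Of the Lgr UMIs in the fibroblast lineage, Lgr5 made up 45.0%, 53.6%, 15.6% and 51.1%. Lgr6, which marks some cartilage and skin progenitors, came from chondrocytes in neonate control, with 74.8 CPM (69.8 to 80.0) and 81.4% of its UMIs in gated cells. In the fibroblast lineage it was 0.96, 0.2, 1.51 and 1.29 CPM, and the neonatal injury ratio was -2.21 (-3.23 to -1.38), from 13 against 66 UMIs. The chondrocyte markers summed to 266.8 CPM in the lineage in neonate control and 479.3 CPM in neonate injury, all 10 with UMIs in both, and their part in that ratio was not tested.

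The coreceptors Lrp5 and Lrp6, which bind Wnt proteins beside a Frizzled receptor, were spread over the classes. Lrp6 stood at 112, 124, 175 and 124 CPM in the fibroblast lineage, 64.3, 64.0, 79.5 and 84.6 CPM in endothelial cells, 90.4, 93.2, 78.3 and 118 CPM in mural cells and 112, 107, 137 and 93.6 CPM in macrophages. Lrp5 was 21.0, 23.8, 26.4 and 21.9 CPM in the fibroblast lineage and 46.0, 54.3, 76.8 and 71.6 CPM in endothelial cells. Every comparison of Lrp5 and Lrp6 in these 4 classes was within 2-fold, and the lowest fibroblast-lineage ratio was that of Lrp6 for age, -0.64 (-0.68 to -0.59). In macrophages Lrp6 and Lrp5, at 23.5, 30.7, 12.8 and 19.0 CPM, were the only members that reached 20 CPM, and Fzd5 was next with 12.5, 11.4, 5.42 and 17.3 CPM.

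Differences of 2-fold were not rare among the members, and they were not rare among all genes either. A gene is counted here with at least 50 UMIs over the 2 libraries of a comparison. In the fibroblast lineage, 9 of 30 such members were at least 2-fold higher in neonate than adult control (Wnt16, Wnt4, Lgr5, Rspo3, Fzd3, Fzd2, Wnt2b, Fzd6 and Wnt5a) and 4 lower (Fzd9, Fzd10, Rspo2 and Fzd1), where 2-fold differences were found in 30.2% of all genes counted (18.3% higher, 11.9% lower). The median log2 ratio was 0.24 over the members and 0.14 over all genes. With neonatal injury, 3 of 30 were higher (Rspo2, Fzd1 and Wnt16) and 6 lower (Rspo4, Lgr6, Wnt4, Wnt2b, Wnt2 and Rspo3), against 21.4% of all genes counted (8.95% higher, 12.5% lower), with medians of 0.11 and -0.06. With adult injury, 7 of 29 were higher (Wnt16, Lgr5, Fzd2, Wnt5a, Fzd3, Rspo3 and Fzd6) and 4 lower (Wnt6, Fzd9, Fzd4 and Wnt11), against 32.4% of all genes counted (17.4% higher, 15% lower), with medians of -0.20 and 0.04. Macrophage markers summed to 10.0 CPM in the lineage in adult control and 61.7 CPM in adult injury, all 9 with UMIs in both, and their part in the adult counts was not tested. The adult injury count was 7 in place of 11 after thinning, where the share of all genes was not computed. The age and neonatal comparisons share the neonate control library, and the age and adult comparisons share the adult control library.

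**Figure D5:**
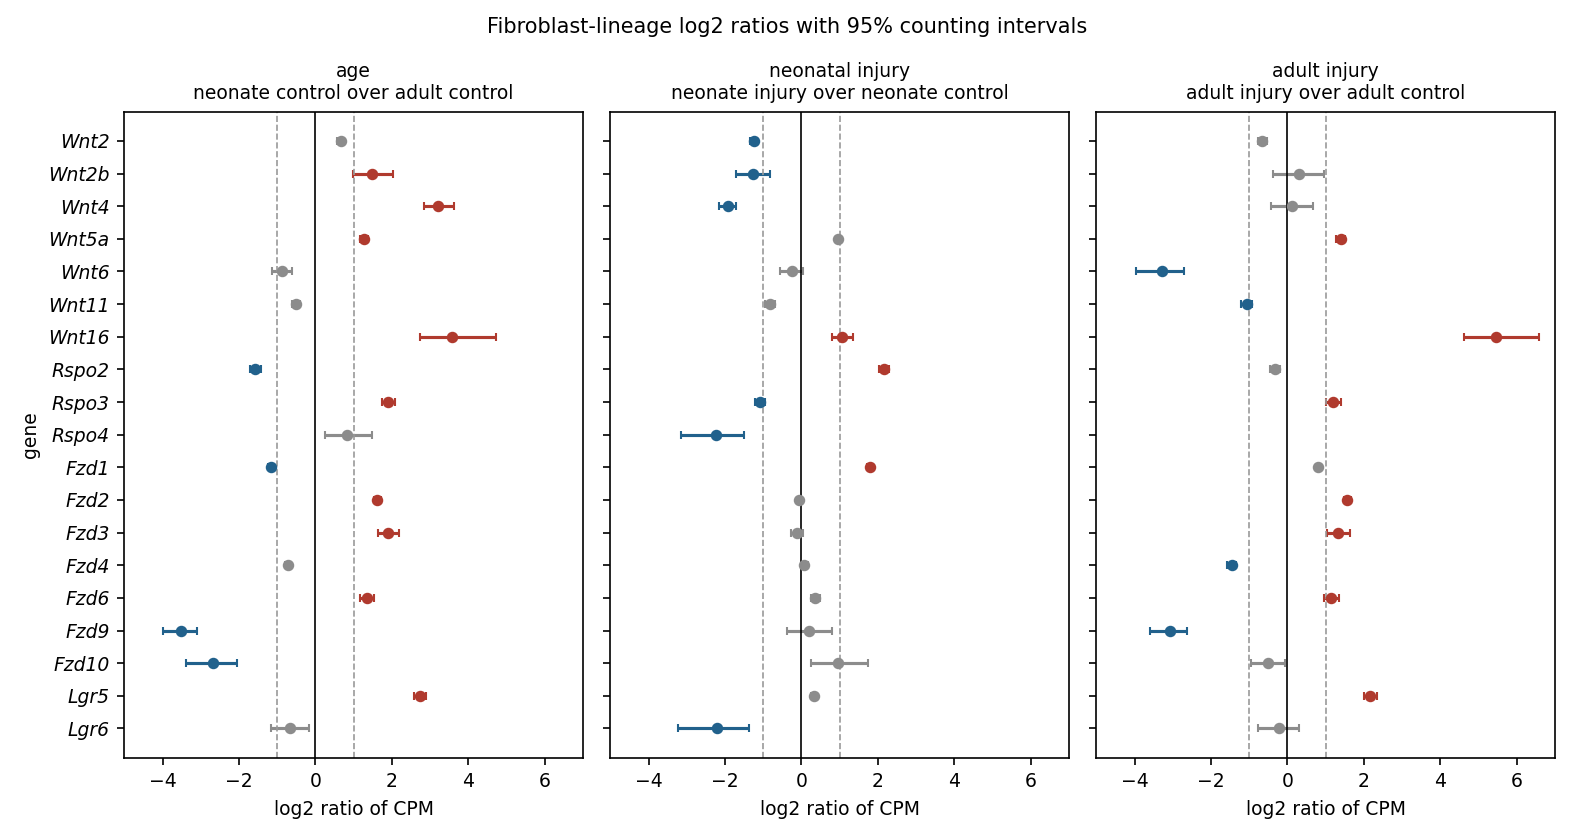
Log2 ratios of CPM in fibroblast-lineage cells, 1 panel per comparison, with 95% counting intervals, for the members at least 2-fold apart in any of them; red is at least 2-fold higher, blue at least 2-fold lower, dashed lines mark 2-fold, and a member with under 50 UMIs over the 2 libraries has no point. Wnt16 and Lgr5 lie to the right in both the age and the adult injury panel, and Rspo2 and Rspo3 change sides between the panels.

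Wnt2b had few UMIs, 154, 60, 39 and 41 in the lineage. Its ratio was 1.48 (0.98 to 2.04) for age and -1.26 (-1.72 to -0.83) for neonatal injury. It was under 2-fold in tenocyte-gated cells (0.69) and as a mean over cells (0.88) for age, and after thinning (-0.78) and in Y-positive, Xist-negative cells (-0.46) for neonatal injury.

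Mural cells, the pericytes and smooth muscle cells of vessels, differed in their noncanonical ligands. Wnt5a was 17.5, 54.0, 2.81 and 35.7 CPM and Wnt5b 40.9, 36.3, 7.49 and 21.6 CPM, and adult control was the lowest library for both. With adult injury, 4 of 13 members counted were at least 2-fold higher and 2 lower, against 27.6% of all genes counted (16.4% higher, 11.2% lower). The log2 ratio was 3.60 (2.68 to 4.84) for Wnt5a, 2.14 (1.30 to 3.14) for Wnt9a, 1.51 (0.82 to 2.28) for Wnt5b and 1.02 (0.62 to 1.44) for Fzd1, and the lower genes were Fzd7 and, at -1.38 (-2.21 to -0.66), Fzd5. With Leiden classes the Wnt9a ratio was -0.62, a reversal, and Wnt5b was 0.71. After thinning Wnt9a was 0.84 and Wnt5a 1.61. Fzd1 was 19.7, 44.4, 25.0 and 50.9 CPM in these cells, Fzd2 52.2, 59.7, 41.8 and 52.0 CPM, Lgr4 48.7, 35.9, 33.4 and 32.0 CPM, Lgr5 36.7, 11.4, 14.4 and 8.92 CPM and Fzd8 23.8, 21.0, 24.0 and 19.3 CPM. Of the mural cells of adult injury, 149 in number, 16.1% had just enough markers to pass, and their median count of fibroblast markers was 6 of 10.

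With neonatal injury, 3 of 18 members counted in mural cells were higher and 1 lower, against 11.6% of all genes counted (6.58% higher, 5.05% lower). The log2 ratio was 1.62 (1.28 to 1.97) for Wnt5a, 1.34 (0.68 to 2.00) for Wnt9a, 1.18 (0.82 to 1.53) for Fzd1 and -1.67 (-2.26 to -1.16) for Lgr5. In Y-positive, Xist-negative cells, Wnt5a was 0.67 and Wnt9a 0.24, under 2-fold. Wnt5a was 0.96 with 1 more marker needed, Wnt9a 0.47 after thinning, and Lgr5 -0.66 with Leiden classes. For age, 6 of 17 were higher in neonates (Wnt2, Wnt5a, Wnt5b, Wnt4, Fzd3 and Lgr5) and Fzd7 was lower, at -1.26 (-1.52 to -1.01), against 24.1% of all genes counted (13.9% higher, 10.2% lower). Wnt2 rested on 66 against 3 UMIs, a ratio of 3.03 (1.63 to 5.55), and with Leiden classes it was 0.95. The Wnt5b ratio was 2.42 (1.85 to 3.12), and Lgr5, at 1.34 (0.90 to 1.84), was 0.14 with 1 more marker needed.

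In Schwann cells, 7 of 14 members counted had a log2 ratio of 1 or more for age once 0.5 was added to each count (Rspo3, Lgr6, Lgr5, Fzd8, Fzd2, Fzd1 and Wnt16) and Wnt4 was lower, against 29.9% of all genes counted (14.7% higher, 15.1% lower). Fzd1 was 93.8, 89.3 and 44.5 CPM and Fzd8 29.8, 23.2 and 10.5 CPM in neonate control, neonate injury and adult control. The adult library had 74 Schwann cells, so these ratios rest on few UMIs. Lgr5 was 72.4 against 13.1 CPM, a log2 ratio of 2.33 (1.23 to 4.10) from 455 against 5 UMIs. Rspo3 and Lgr6 had 87 and 61 UMIs in neonate control and 0 in adult control, at least 1.76-fold and 1.24-fold higher against a floor of 3 UMIs in the adult class, bounds that lie under 2-fold. The Fzd2 interval spanned 0, at 1.30 (-0.27 to 4.68), and so did that of Wnt16, at 1.03 (-0.94 to 6.94). Wnt4, -2.11 (-2.97 to -1.07), was 0.19 when the highest doublet scores were also removed. With neonatal injury, none of 16 was higher and 3 were lower, against 14.1% of all genes counted (7.29% higher, 6.85% lower). These were Rspo3 at -3.69 (-5.29 to -2.62), Wnt4 at -2.24 (-3.44 to -1.30) and Wnt16 at -1.32 (-2.18 to -0.55). With Leiden classes Wnt4 was -0.86, and after thinning Wnt16 was -0.21. Lrp6 was 71.0, 69.9 and 96.9 CPM in these Schwann cells, and Fzd2 was 16.1, 22.4 and 5.24 CPM. Adult injury held 14 Schwann cells, too few to compare.

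Endothelial cells had 9 members counted in each comparison. Only Fzd4 in the age comparison was at least 2-fold apart, against 26.5% of all genes counted (9.85% higher, 16.7% lower), and in the injury comparisons none was, against 11.8% of all genes counted (8% higher, 3.85% lower) in neonates and 13.9% of all genes counted (7.77% higher, 6.17% lower) in adults. The neonatal injury ratio of Fzd4 was 0.63 (0.47 to 0.78) and the adult one -0.56 (-0.70 to -0.42), and those of Fzd6 were 0.52 (0.31 to 0.73) and -0.49 (-0.72 to -0.27). Both receptors were thus above control with injury in neonates and below it in adults, within 2-fold. In macrophages, 1 of 3 members counted was higher for age, Fzd5 at 1.16 (0.23 to 2.31), against 19.9% of all genes counted (9.07% higher, 10.8% lower). None of 4 was 2-fold apart with neonatal injury, against 16.2% of all genes counted (8.05% higher, 8.14% lower). With adult injury 3 of 6 were higher, against 22.5% of all genes counted (11.8% higher, 10.7% lower). These were Fzd5 at 1.62 (0.80 to 2.71), Fzd1 and Wnt11. Fzd1 had 67 UMIs in adult injury and 0 in adult control, at least 4.76-fold higher over the floor of 3 UMIs, and Wnt11, with 60 against 2 UMIs, had a ratio of 2.37 (0.76 to 5.76) that was -0.42 with Leiden classes. Fzd1 was 7.04 CPM in those macrophages and 108 CPM in fibroblast-lineage cells of the same library, and a median of 4 of the 10 fibroblast markers had a UMI in these macrophages, whose part in the ratio was not tested.

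Chondrocytes, the cells of cartilage, numbered at least 50 in the neonatal libraries only, and the 65 of neonate injury allow a description alone. In neonate control and neonate injury, Wnt4 was 26.2 and 71.9 CPM, Wnt5a 9.27 and 57.8 CPM, and Rspo3 13.4 and 80.3 CPM. Among the receptors, Fzd1 was 19.95 and 118 CPM and Lgr5 13.1 and 84.6 CPM, while Lgr4 was 84.9 and 62.0 CPM, Lgr6 74.8 and 59.2 CPM and Fzd9 33.6 and 9.86 CPM. The first 5 were thus higher in the few chondrocytes of neonate injury and the last 3 lower. Fzd2, Fzd6, Fzd7, Fzd8, Lrp5 and Lrp6 also reached 20 CPM in this class. The median count of fibroblast markers in these cells was 7 of 10 in neonate control and 7 in neonate injury, and its part in these values was not tested.

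Lymphatic endothelial cells could be described in neonate injury and adult control. Beside Fzd6, they held 54.1 and 106 CPM of Fzd4, 7.72 and 42.6 CPM of Wnt4, 8.83 and 23.6 CPM of Wnt9a and 23.2 and 12.0 CPM of Rspo3. Adult control was the higher library for Fzd4, Wnt4 and Wnt9a. Lrp5 was 55.2 and 77.4 CPM, Lrp6 59.6 and 70.0 CPM and Lgr4 19.9 and 20.4 CPM in the same cells. Wnt4 was also high in adult control in Schwann cells, at 34.1 CPM (18.1 to 58.2), and in myogenic progenitors, at 30.8 CPM (17.9 to 49.3), against 1.24 CPM in the fibroblast lineage. In that library 35.4% of the Wnt4 UMIs and 32.9% of the Lgr5 UMIs in gated cells came from 30 keratinocytes. Rspo2 was 39.3 CPM (22.0 to 64.8) in the adult control Schwann cells, from 15 UMIs, against 2.71 and 0 CPM in those of neonate control and neonate injury. Among the blood cell classes of at least 50 cells other than macrophages, Lrp6, Lgr4 and Fzd6 reached 20 CPM, the last of them in mast cells at 22.8 CPM (13.0 to 37.0).

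Myogenic progenitors, the satellite and precursor cells of the adjoining muscle, could be compared for age and neonatal injury. They held 44.1, 59.5 and 68.8 CPM of Fzd4 and 58.1, 45.4 and 30.8 CPM of Lgr4 in neonate control, neonate injury and adult control. Fzd3 was 20.2, 16.4 and 14.5 CPM there, Lrp5 25.3, 26.6 and 10.9 CPM and Lrp6 70.9, 73.6 and 159 CPM. For age, 1 of 7 members counted was higher, Lrp5 at 1.11 (0.06 to 2.70), and 1 lower, Lrp6 at -1.18 (-1.51 to -0.81), against 35.2% of all genes counted (23.2% higher, 12% lower). With neonatal injury 2 of 10 were higher, Fzd1 at 1.74 (0.95 to 2.51) and Wnt9a at 1.22 (0.48 to 1.92), and Wnt5b was lower at -1.57 (-3.02 to -0.55), against 11.4% of all genes counted (5.37% higher, 5.99% lower). After thinning Wnt9a was 0.26. Of these progenitors, 42.7%, 42.8% and 33.9% had just enough markers in neonate control, neonate injury and adult control.

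The other genes of the pathway were taken from 8 lists. Of 16 Wnt target genes, among them Lgr5, a member, and genes also in other lists, 13 were counted in the fibroblast lineage for age, and 7 were at least 2-fold higher in neonate control and none lower, where 18.3% of all genes counted were higher and 11.9% lower. The median log2 ratio was 1.07, against 0.14 over all genes. Apart from Lgr5, the largest ratios at 20 CPM or more were those of the cyclin Ccnd1 at 127 against 31.1 CPM and a ratio of 2.03 (1.95 to 2.11) and the feedback inhibitor Nkd1 at 20.6 against 5.14 CPM and a ratio of 2.00 (1.81 to 2.20). With neonatal injury, 5 of 13 were lower and none higher, against 12.5% and 8.95% of all genes, with a median of -0.84 against -0.06. The largest at 20 CPM or more were Ccnd1 at -1.52 (-1.58 to -1.46), the ligase Znrf3 at -0.93 (-1.01 to -0.85) and Myc at -0.84 (-0.89 to -0.80). With adult injury, 2 of 11 were higher and 2 lower, against 17.4% and 15% of all genes, with a median of -0.03 against 0.04, and beside Lgr5 the largest were Fgf18 at -1.24 (-1.38 to -1.11) and Nkd2 at -0.96 (-1.11 to -0.80). Without dividing cells the counts were 7 higher for age, 5 lower for neonatal injury and 2 higher and none lower for adult injury. With Leiden classes the adult counts were 1 higher and 4 lower. The shares of all genes under these alternatives were not computed.

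In the fibroblast lineage, some other Wnt receptors differed for age and with adult injury, and the gene that exports Wnt proteins differed with adult injury. All values of this paragraph are of that lineage. The share of all genes counted that were 2-fold apart was 30.2% for age, 21.4% for neonatal injury and 32.4% for adult injury, beside which the counts of these short lists are to be read. Of 4 other Wnt receptors, 2 were higher in neonate than adult control and 2 with adult injury, in each case Ptk7 at 2.17 (2.03 to 2.31) and 2.74 (2.60 to 2.88) and Ror2, a Wnt5a receptor, at 1.49 (1.41 to 1.58) and 1.99 (1.90 to 2.08), and none was 2-fold apart with neonatal injury. Wls, which carries Wnt proteins to the cell surface, was 346 against 171 CPM with adult injury, 1.02 (0.98 to 1.06). Of 10 secreted antagonists, 8 were counted. With adult injury 2 were higher and 3 lower, with the largest ratios for Wif1 at 7.94 against 202 CPM and a ratio of -4.66 (-4.83 to -4.51), Sfrp1 at 479 against 23.1 CPM and a ratio of 4.37 (4.29 to 4.46) and Sfrp2 at 473 against 26.2 CPM and a ratio of 4.17 (4.09 to 4.26). With neonatal injury 3 were higher, Sfrp1 at 1.29 (1.23 to 1.35), Sfrp2 at 1.24 (1.20 to 1.28) and Sfrp4 at 1.16 (1.11 to 1.21), and for age 2 were higher and 2 lower, led by Sfrp2 at 2.21 (2.13 to 2.30), Wif1 at -1.54 (-1.59 to -1.49) and Sfrp1 at 1.10 (1.00 to 1.20). None of the 13 intracellular transducers was 2-fold apart in any comparison of the fibroblast lineage. Of the planar cell polarity genes, 5 of 7 were counted, with 1 lower for age, 1 higher for neonatal injury, and 1 higher and 1 lower for adult injury. Of the 4 TCF/LEF factors, 2 were higher for age and 2 lower with neonatal injury, and 1 of the 3 counted was higher with adult injury. Of the 2 receptor turnover ligases, only Znrf3 was counted, within 2-fold in all 3, and of the 3 Wnt secretion genes 1 was higher for age and 1 with adult injury.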

How the data were processed

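The deposited values are raw UMI counts per gene and cell barcode. The file headers name Cell Ranger 8.0.1 as the software the authors used, and the submitters' processing notes name mouse build GRCm39. Read depth and the annotation release are not given in the sources used here. A barcode was kept if it had 500 genes or more, 1000 UMIs or more and no more than 15% of them mitochondrial. A cell joined a class with at least 50% of its markers (60% for chondrocytes and myofibres), and the fibroblast lineage with at least 5 of 10 fibroblast markers and no other class; cells with markers of several classes were left out, which served as the treatment of doublets. These thresholds were set after the marker counts had been seen, and the members and gene lists were chosen with earlier results of these data known.

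UMIs were summed per class and library. Levels have exact Poisson intervals, and log2 ratios, with 0.5 added to each count, exact binomial intervals, both of 95% and for counting error only. A gene was called at a 2-fold ratio with at least 50 UMIs over both libraries. Members were taken up in classes of at least 50 cells where they reached 20 CPM or were called, and in the smaller classes some are named without their values. From each pathway list up to 3 genes with the largest ratios at 20 CPM or more are named, those of the smaller lists in part. Python 3.11.15, numpy 2.4.6, scipy 1.17.1 and scanpy 1.11.5 were used, and the ratios were tested on simulated data. Alternatives changed the cell filter, gates, doublet removal, dividing cells, sex, depth, averaging, added count, minimum count and fold. Promoter sequences are those of RefSeq on build GRCm38.p6, and no coordinate was carried between builds.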

Additional observations from a re-analysis of the deposited data

Results flagged for a closer look

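Rspo2, Rspo3 and Fzd2 had injury ratios of opposite sign in neonates and adults in fibroblast-lineage cells, with intervals that excluded 0 at both ages and a 2-fold difference at one of them or both. No member met these conditions in endothelial cells, mural cells or macrophages. With 1 library per group, these differences between ages were not tested. The log2 ratio of Rspo3 was -1.0842 with neonatal injury and 1.2051 with adult injury. That of Rspo2 was 2.1684 and -0.3296, and the adult value was 0.24 with cells thinned to 2000 UMIs. That of Fzd2 was -0.0678 and 1.5749, so that its neonatal libraries were nearly level. The neonatal sign of Fzd2 did not hold in tenocyte-gated cells, at 0.08 (-0.04 to 0.21), or outside the gate, at 0.04 (-0.02 to 0.10), and after thinning the value was -0.08 (-0.20 to 0.03).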

How the results depend on the processing

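Of 790 values of the 71 member ratios that were at least 2-fold apart, each recomputed under the alternatives, 785 kept their direction, 653 lay inside the interval of the main value and 80 were under 2-fold. The 5 reversals were Rspo2 for age in tenocyte-gated cells at 1.76, Wnt2 with neonatal injury in Y-positive, Xist-negative fibroblast-lineage cells at 0.17, Wnt4 for age in Schwann cells at 0.19 with the highest doublet scores removed, and Wnt9a in mural cells at -0.62 and Wnt11 in macrophages at -0.42 with adult injury and Leiden classes. The cause was not tested. The count of fibroblast-lineage members was 22 in place of 13 for age at 1.5-fold. For adult injury it was 7 in place of 11 after thinning to 2000 UMIs, where fewer members had enough UMIs. The shares of all genes at these settings were not computed. No paired analysis was possible because each group is 1 library. Ratios under 2-fold are not in these counts, and several of them changed sign with the cells taken, among them Lgr5, Fzd2 and Fzd4 with neonatal injury and Rspo2 with adult injury. Few UMIs widen the intervals of small classes, as for Lgr5 with age in Schwann cells (1.23 to 4.10).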
